A study of Mus musculus with 4 samples.

Results

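The sites described here are places at gene ends where a Slug peak of 1 mouse breast cancer line overlapped a Snail peak of another. The highest-scoring Slug peaks are left out. A site is a Slug peak with a peak score below 500 that overlapped a Snail peak by at least 1 bp and whose midpoint lay within 1 kb of the start or end of a RefSeq gene. Of 41612 Slug peaks 1642 met this rule, which is 3.95% (95% Wilson interval 3.76 to 4.14) of the list and 32.6% of the 5038 Slug peaks that overlapped any Snail peak. A further 45 shared Slug peaks at gene ends scored 500 or more and were left out. The sites were thus chosen by Slug score, by overlap with Snail and by distance to a gene end, and those values are given as descriptions. At the score limit, the sites just inside lay at Gm32584 (494) and Cep295 (496), and the peaks just outside at Tex14 (504) and Mpc2 (508). At the distance limit, the sites just inside lay 998 bp from an end of Zbtb7b and 999 bp from one of Ccng2, and the peaks just outside lay past 1 kb at Gm52180 and, at 1001.5 bp, at Gm35102.

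The study used ChIP-seq, in which DNA bound by a protein is recovered with an antibody and sequenced, and its question was why Slug and Snail are not equally able to activate the epithelial-mesenchymal transition in breast cancer cells. Slug was mapped in pBl.1G, an epithelial line with high Slug, using the rabbit monoclonal antibody C19G7. Snail was mapped in pBl.3G, which is mesenchymal and has high Snail, using an antibody labelled as directed at both Snail and Slug. Both are MMTV-PyMT breast cancer lines, that is, from tumours caused by polyoma middle T antigen under the mouse mammary tumour virus promoter, and both were grown untreated in DMEM/F12 with adult bovine serum. There was 1 library of each factor, so factor, cell line and antibody cannot be told apart and no test across replicates is possible. An overlap does not show that both factors were bound in the same cells. Given the label of its antibody, a Snail peak here cannot be assigned to Snail alone. An input DNA library of each line, without antibody, was not analysed here. Intervals of shares and densities below are 95% Wilson intervals, and those of medians are 95% intervals read from the ranked values. Both kinds cover counting or sampling error only, and neighbouring peaks and promoters are not independent of each other. Read depth is unknown, as the files hold peaks and scores and no reads.

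Slug (gene Snai2) and Snail (gene Snai1) are zinc-finger transcription factors of 1 family that bind the E-box CAGGTG and mostly repress transcription. They are best known for repressing genes of epithelial cell junctions and polarity during the epithelial-mesenchymal transition, in which cells loosen their contacts and gain motility. Gene starts are crowded places where many factors, histone marks and the transcription machinery meet, and a peak there need not contain the DNA motif of the factor that was precipitated.

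The sequences below show the motif behind the main finding, which is that CAGGTG was denser under the Slug peaks of the shared sites than in the rest of the same promoters, although most of these promoters held no copy. They come from RefSeq promoter windows (GRCm38.p6, the assembly of mm10), are written 5′ to 3′ and carry the motif in capitals. Each is a 30-base stretch upstream of an annotated gene start and inside a shared site. For genes of the lists used here, these are the stretches with CAGGTG in order of Snail score.
Mrpl21: gtttccctgctcCAGGTGttccctactgag
Snai1: ctgagaccggagCAGGTGcgcctgggctgc
F11r: actcaccgtacgCAGGTGcaaccccgaact
Areg: ctataaaagcagCAGGTGctcgccgcaccc
Rpl27: agagctcacattCAGGTGtcatcctcgctc
Pard6b, outer copy: acgccgcgggcgCAGGTGcgcgcttcccat
Pard6b, inner copy: gcgccgaagctgCAGGTGagcgcgcgcacg

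The Mrpl21 stretch is chr19:3282983-3283012 on the plus strand, with the motif 11 bp from the midpoint of its Slug peak. This motif lay 44 bp upstream of 1 annotated start of the gene. The outermost start, at position 3282997, falls inside the stretch. The Snai1 stretch is chr2:167538057-167538086 on the minus strand, opposite to the gene, with the motif 38.0 bp from the Slug midpoint and 123 bp upstream of the start. The F11r stretch is chr1:171437427-171437456 on the minus strand, 19.0 bp from the Slug midpoint. The Areg stretch is chr5:91139567-91139596 on the plus strand, 17 bp upstream of the start, and also holds the letters tataaa of a TATA box. The Rpl27 stretch is chr11:101442176-101442205 on the plus strand, 72.5 bp from the Slug midpoint. The Pard6b stretches are chr2:168080851-168080880 and chr2:168080906-168080935 on the plus strand, so this promoter held 2 copies under 1 Slug peak. These are genes of different kinds: Snai1 encodes Snail itself, F11r the junctional adhesion molecule JAM-A, Pard6b a subunit of the apical Par polarity complex, Areg the growth factor amphiregulin, Rpl27 a ribosomal protein, and Mrpl21 a mitochondrial ribosomal protein.

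Further stretches were chosen after their values were seen. They are those with the highest Slug scores among stretches that hold CAGGTG upstream of a start and within 50 bp of the midpoint of a shared site, so the position of the motif was fixed by the choice and they are shown as examples only.
Glrx2: gaactcggcaggCAGGTGagtgcctcgctc
Fam187b, outer copy: ggcccctctcggCAGGTGgagcacgcccag
Fam187b, inner copy: accagcagcgaaCAGGTGcgcacaaggccc
Npepps: accggccgacgaCAGGTGcagcgccaagcg
Lurap1l: aaactcgactggCAGGTGgaccaaagcaga
Nbea: ggaccgggccgaCAGGTGagcaggtgcgcg

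Glrx2, a mitochondrial glutaredoxin gene, had its motif 2 bp from the midpoint of a Slug peak scoring 388 (chr1:143739428-143739457, plus strand). The Fam187b copies lay 22.5 and 7.5 bp from the midpoint of a Slug peak scoring 367 (chr7:30973671-30973700 and chr7:30973701-30973730, minus strand). At Npepps, which encodes the puromycin-sensitive aminopeptidase, the distance was 49.0 bp and the Slug score 287 (chr11:97280741-97280770, minus strand). At Lurap1l it was 13.0 bp (chr4:80910620-80910649, minus strand). At Nbea, which encodes neurobeachin, it was 12 bp (chr3:56183854-56183883, plus strand), and the stretch holds another copy of the motif, in lower case, shortly after the capitals. In all, 113 CAGGTG copies lay upstream of a start and within 50 bp of the midpoint of a shared site.

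The whole upstream stretch of Snai1 and of Pard6b is shown next, since the former is the gene of one of the mapped factors and the latter a polarity gene with a repeated motif. Each has 150 bases ending directly before the gene start, on the plus strand, with the motif in capitals on whichever strand it lies: chr2:167538045-167538194 for Snai1, where it reads CACCTG, and chr2:168080854-168081003 for Pard6b.
Snai1: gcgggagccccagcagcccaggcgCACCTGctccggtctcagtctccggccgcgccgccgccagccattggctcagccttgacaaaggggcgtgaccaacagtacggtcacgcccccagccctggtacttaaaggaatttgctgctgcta
Pard6b: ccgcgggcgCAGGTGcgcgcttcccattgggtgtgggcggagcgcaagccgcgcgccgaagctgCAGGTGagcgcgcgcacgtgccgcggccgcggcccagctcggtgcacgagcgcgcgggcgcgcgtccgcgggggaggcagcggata

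CAGGTG was more frequent in promoters touched by a shared site than in promoters touched by Snail alone. The motif was searched on both strands (CAGGTG or its complement CACCTG) in RefSeq windows of 300 bases, from 250 before to 50 after each start. The 600 shared sites that touched a window touched 721 windows of 680 genes, and 268 of these windows held the motif, a share of 37.2% (33.7 to 40.8). The share was 15.5% (14.8 to 16.2) in the 11156 windows touched by a Snail peak and no Slug peak, 46.1% (39.6 to 52.7) in the 217 touched by a Slug peak and no Snail peak, and 20.2% over all 32817 windows. It was 38.8% (30.4 to 47.9) in the 116 windows touched by peaks of both factors but by no shared site. Windows touched by a shared site therefore stood 2.40 times above Snail-only promoters, and Snail-only promoters stood below the genome's own promoters. Over 1067 shared sites nearest a gene start, touching a window or not, 27.1% (24.5 to 29.8) had the motif in that gene's closest window. In 29.8% (26.6 to 33.3) of the windows touched by a shared site, a copy lay inside the Slug peak itself. A match is a description of the letters and does not show that the copy was bound.

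**Figure D1:**
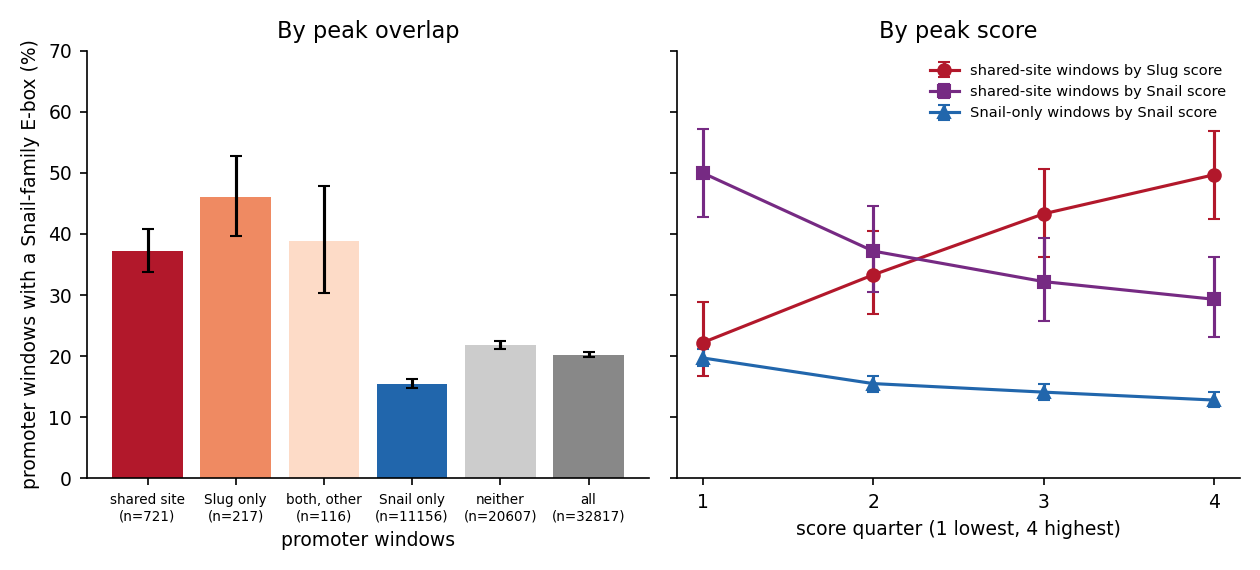
Left, share of 300-base RefSeq promoter windows that hold the Snail-family E-box, by the peaks that touch them, with 95% Wilson intervals. Right, the same share in 4 equal bins of Slug score or of Snail score. Windows touched by a shared site reached 37.2% against 15.5% for Snail-only windows, and the share climbed with the Slug score and fell with the Snail score.

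Of all hexamers compared, CAGGTG differed most. Each of 2080 hexamers, counted together with its reverse complement, was compared between windows touched by a shared site and Snail-only windows, and CAGGTG differed by 21.7 percentage points. The next largest difference was that of GCAGGT, which overlaps CAGGTG by 5 letters, at 33.0% against 15.8%. The largest differences in the other direction were those of CCCTCC, at 41.3% against 50.3%, and GCCCCC, at 35.5% against 44.2%. The other promoter motifs given here differed less than CAGGTG. The E-box CACGTG was present in 9.43% against 10.6%, the E-box CAGCTG in 13.2% against 14.3%, the GC box GGGCGG in 63.0% against 68.4% and the ETS motif CCGGAAG in 21.9% against 19.5%. In all windows these 4 shares were 7.15%, 16.3%, 35.6% and 8.86%. The AP-1 motif TGAGTCA was present in 3.33% against 3.68%, and in 5.20% of all windows.

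Base composition was close in the windows compared. The median CpG observed-to-expected ratio was 0.786 in windows touched by a shared site and 0.794 in Snail-only windows, against 0.345 in Slug-only windows and 0.227 where neither factor had a peak. In windows with a CpG ratio of at least 0.6 the motif share was 37.5% at shared sites and 14.4% at Snail-only promoters. Below that ratio the shares were 35.8% and 19.5%. The shared sites thus lay in CpG-rich promoters like those touched by Snail peaks alone. Their CAGGTG share was closer to that of Slug-only promoters.

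The motif was concentrated under the Slug peak. Inside the shared sites there were 220 copies in 80.6 kb of promoter sequence, or 2.73 per kb (2.39 to 3.11). In the rest of the same promoters, outside Slug peaks but still inside the Snail peak, there were 61 copies in 99.1 kb, or 0.616 per kb (0.479 to 0.791). That is a 4.43-fold difference within the same set of promoters, and the lower value is close to the 0.590 per kb found inside Snail peaks at Snail-only promoters. The concentration was not particular to shared sites: at Slug-only promoters there were 3.8 copies per kb (3.13 to 4.6) inside the Slug peak and 1.14 (0.829 to 1.57) outside it. The 9 other E-box hexamers of the form CANNTG had between 0.0869 and 0.558 copies per kb inside the shared sites.

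**Figure D2:**
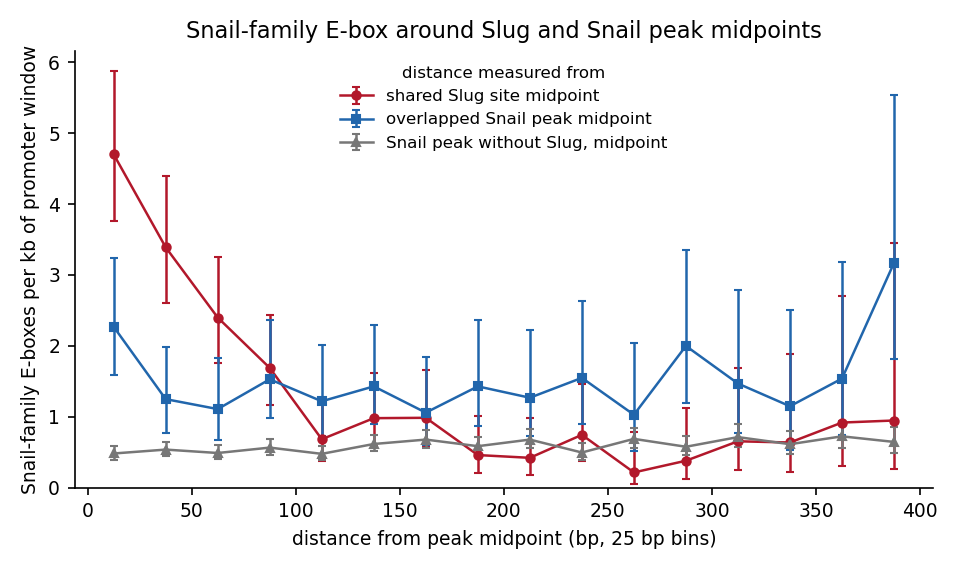
Density of the Snail-family E-box per kb of promoter window against distance from a peak midpoint in 25 bp bins, with 95% intervals. The curve measured from the shared Slug site peaks at its midpoint, while those measured from the overlapped Snail peak and from Snail peaks without Slug show no such decline with distance.

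The density was highest near the Slug midpoint. It was 4.04 per kb (3.41 to 4.78) within 50 bp, 2.04 (1.61 to 2.59) at 50 to 100 bp, 0.786 at 100 to 200 bp, 0.455 (0.288 to 0.719) at 200 to 300 bp and 0.954 (0.604 to 1.51) at 300 to 500 bp. Measured in the same promoters from the midpoint of the overlapped Snail peak, the density was 1.75 per kb (1.32 to 2.33) within 50 bp and 2.0 (1.56 to 2.57) at 300 to 500 bp. Around Snail midpoints at Snail-only promoters it stayed between 0.511 and 0.680 per kb from the centre out to 500 bp. Of these 3 kinds of peak, the Slug peak of a shared site was the one with a density near its midpoint above that at every greater distance.

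The bases beside the motif also differed. Directly before CAGGTG, read in that direction, a G stood in 55.7% (49.1 to 62.1) of 219 copies inside shared sites and in 34.2% (32.0 to 36.5) of 1744 copies in Snail-only promoters. An A stood there in 26.0% against 13.4%, a C in 9.59% against 31.1% and a T in 8.68% against 21.3%. Directly after the motif a C stood in 37.0% (30.9 to 43.6) against 24.6% (22.6 to 26.7). Of the copies printed for list genes, those of Areg, Snai1 and F11r and the outer copy of Pard6b have this pair of flanking bases.

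The motif share followed the Slug score upwards and the Snail score downwards. In 4 equal bins of Slug score, 22.2%, 33.3%, 43.3% and 49.7% of the windows touched by a shared site held CAGGTG, from the lowest scores to the highest. In 4 equal bins of Snail score the shares were 50%, 37.2%, 32.2% and 29.3%. Snail-only windows also fell, from 19.7% in the lowest bin of Snail score to 12.8% (11.6 to 14.1) in the highest. Split at the medians of both scores (78.7 for Slug and 917 for Snail), the share was 52.4% (45.3 to 59.3) with Slug high and Snail low, and 22.5% (17.2 to 28.9) with Slug low and Snail high. Where both were high it was 40.2%, and where both were low 33.5%. The score is the authors' peak caller score, and Slug and Snail scores come from different libraries and cannot be compared with each other.

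Shared sites lay mainly at gene starts. Where the strand of the nearest gene was matched, 90.4% (88.6 to 92.0) of 1180 sites were nearest to a start, as were 90.5% of Snail-only peaks, which are Snail peaks at gene ends that overlapped no Slug peak. Slug-only peaks, which are Slug peaks at gene ends below the same score that overlapped no Snail peak, lay nearest to a start in 54.7% (52.1 to 57.2), with the rest nearest to a 3′ end. For the other 462 shared sites the strand was not used here. Ends of at least 2 genes lay within 1 kb of 28.0% (25.9 to 30.2) of shared sites, of 24.8% (24 to 25.6) of Snail-only peaks and of 7.75% of Slug-only peaks. Starts on both strands lay within 1 kb of 13.9%, 12.9% and 2.03% of these peaks. Overlap with a Snail peak was part of how the shared sites were chosen, so their likeness to Snail-only peaks in location is a description only.

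**Figure D3:**
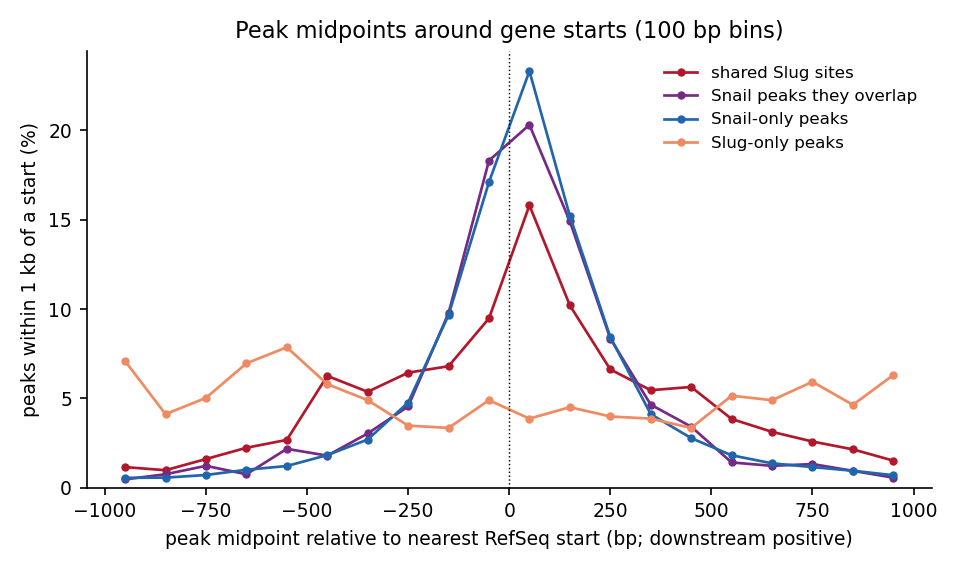
Position of peak midpoints relative to the nearest RefSeq start in 100 bp bins, as a percentage of the peaks of each set within 1 kb of a start. Shared Slug sites have a lower and broader maximum just downstream of the start than the Snail peaks they overlap, and Slug-only peaks have no maximum there.

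Within the start region the shared sites were spread more broadly than Snail peaks. Of 1118 shared sites within 1 kb of a start, 25.3% (22.9 to 27.9) had their midpoint within 100 bp of it, against 38.8% (35.9 to 41.8) of the Snail peaks they overlapped, 40.5% of Snail-only peaks and 8.76% of Slug-only peaks. Upstream of the start lay 43.0% of the shared sites and downstream 57.0%. Midpoints of 69.9% of all shared sites fell inside the span of a gene. The Slug midpoint lay a median of 240 bp (226 to 252) from the midpoint of the Snail peak around it.

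The Slug peaks were narrow and sat inside broad Snail peaks. A shared site had a median width of 232 bp, with quartiles of 179 and 308 bp, and a median Slug score of 79.4, with quartiles of 58.9 and 127. Of all shared sites 86.3% lay wholly inside their Snail peak. They overlapped 1549 of the 28375 Snail peaks, and 94 of these held more than 1 site. The overlapped Snail peaks had a median width of 1171 bp and a median score of 705, against 943 bp and 517 for Snail-only peaks at gene ends. When Snail peaks at gene ends were divided into 4 equal bins of width, in the narrowest bin the medians of score were 99.9 and 102, and in the wider bins 533 against 511, 842 against 775 and 941 against 808. Only in the widest bin did the 95% intervals of the medians not overlap (891 to 1005 against 788 to 834). Of all Snail peaks at gene ends 12.1% (11.5 to 12.7) held a shared site, from 7.86% in the lowest of 4 bins of Snail score to 17.5% in the highest, and from 6.98% in the narrowest bin to 17.4% in the widest. A wider peak has more room for an overlap, and the share of that in the difference was not tested.

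Of 21887 protein-coding genes 1510 had a shared site within 1 kb of an end, a background of 6.90%. Any Slug peak lay that close to 12.1% of these genes and any Snail peak to 48.7%. Of the genes with a shared site 1398 had 1, 109 had 2 and 3 had 3. The last were Pnpla2, which encodes the adipose triglyceride lipase, Raver1, which encodes an RNA-binding protein, and Zbtb7b, which encodes a zinc-finger transcription factor. At Pnpla2 sites scoring 193 and 74.0 lay on either side of the start and overlapped 1 Snail peak scoring 591. A site scoring 51.4 lay at the 3′ end of the gene. At Raver1 a site scoring 391 lay 294 bp inside the start, inside a Snail peak scoring 1850, with another scoring 63.3 on the far side of the start and the last scoring 53.6 beyond the 3′ end. At Zbtb7b the scores were 135, 79.1 and 144, all overlapping 1 Snail peak of 2075 bp scoring 575.

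**Figure D4:**
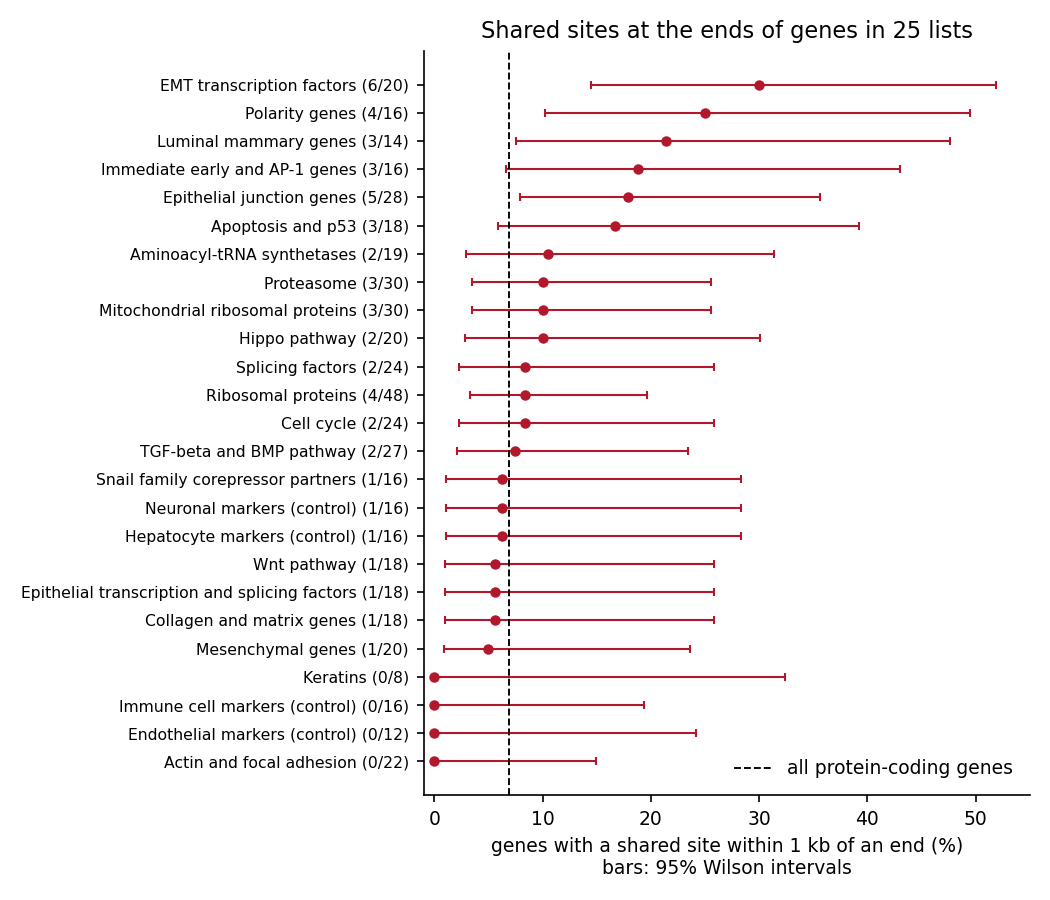
Share of the genes of each of 25 lists with a shared site within 1 kb of an end, with 95% Wilson intervals and the count in brackets, against the 6.90% of all protein-coding genes (dashed line). Transcription factors of the epithelial-mesenchymal transition stand highest at 30%, and the intervals of most lists span the dashed line.

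Transcription factors of the epithelial-mesenchymal transition had the highest share of the 25 lists, 6 of 20 genes or 30% (14.5 to 51.9). Snai1 had a site scoring 118 centred 162 bp upstream of its start and another scoring 51.1 centred 81.5 bp downstream, both inside a Snail peak scoring 944. Snai3, the remaining family member, had a site of 885 bp scoring 309 at an end, which overlapped a Snail peak scoring 68.1. Sox4 had a site scoring 167 upstream of its start and Sox9 one scoring 83.6. Id1 and Id2, which encode inhibitors of basic helix-loop-helix factors, had sites scoring 103 and 74.8, the latter beyond the 3′ end. Any Slug peak lay at the ends of 8 of the 20 genes and any Snail peak at those of 15. With both scores at least 100 the 6 genes became 3, and with a 50% reciprocal overlap none. Over all protein-coding genes the count also fell under these settings, from 1510 to 498 and 72.

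Genes of epithelial contact and polarity also stood above the background. Of 28 epithelial junction genes 5 had a shared site (17.9%, 7.88 to 35.6). Cldn3, a tight junction claudin, had a site scoring 159 centred 99.5 bp downstream of its start. F11r had one scoring 192 and Jup, which encodes plakoglobin, one scoring 78.0. Cxadr, an adhesion receptor of tight junctions, had one scoring 50.9, near the lowest score of the list. Of 16 polarity genes 4 had a site (25%, 10.2 to 49.5). With both scores at least 100, 2 of the junction genes and 3 of the polarity genes kept a site. So did 498 of the 1510 protein-coding genes with a site. Llgl2, of the Scribble complex group, had sites scoring 101 and 246 that overlapped 1 Snail peak. Scrib had one scoring 109 and Pard6b one scoring 102. Ezr, which encodes the membrane-cytoskeleton linker ezrin, had one scoring 55.2 in a Snail peak scoring 1613. The sites of Scrib and Llgl2 also lay within 1 kb of Puf60 and, for the weaker Llgl2 site, of Tsen54. Those of F11r, Jup and Pard6b also lay within 1 kb of Gm26641, Gm12348 and Gm39990. For F11r and Jup this neighbour was the nearest gene.

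The other epithelial and mesenchymal lists differed in their shares. Of 18 epithelial transcription and splicing factors 1 had a shared site, the zinc-finger factor Klf5 (69.1), and of 8 keratins none. Of 20 mesenchymal genes 1 had one: Axl, a receptor tyrosine kinase, whose site scoring 291 lay beyond its 3′ end and also within 1 kb of Hnrnpul1. Of 18 collagen and matrix genes 1 had one, the laminin gene Lamc1 (57.7). These 4 lists had intervals that span the background. Of 14 luminal mammary genes 3 had a site (21.4%, 7.57 to 47.6), above the background: Erbb3, Muc1 and Areg, scoring 59.8, 62.9 and 61.0. Within 500 bp of a gene end 1 of the 14 had a site, and with both scores at least 100 it was 0. Over all protein-coding genes the count with a site also fell under these settings, from 1510 to 1105 and 498. With list counts this small, whether the excess held was not tested.

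The intervals of the signalling, corepressor and actin lists span the background. Of 27 TGF-beta and BMP genes 2 had a shared site, the signal transducer Smad5 (134) and the ubiquitin ligase Smurf1 (58.2). Of 18 Wnt genes 1 had one, Porcn, whose enzyme acylates Wnt ligands (274, also within 1 kb of Ebp). Of 20 Hippo genes 2 had one, the kinase Stk4 (135) and Vgll4 (119). Of 16 corepressor partners of the family 1 had one, the deacetylase Hdac1 (53.8), and of 22 actin and focal adhesion genes none. Of 16 immediate early and AP-1 genes 3 had a site (18.8%, 6.59 to 43), a share above the background with an interval that reaches just below it. Jun had a site scoring 384, the highest of any listed gene, Klf10 one scoring 304 and Fosl2 one scoring 60.4.

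Lists of cell cycle, apoptosis and housekeeping genes and of other cell types' markers served for comparison. Shared sites lay at 2 of 24 cell cycle genes (Cdkn2c and E2f3), or 8.33%. They lay at 3 of 18 apoptosis and p53 genes (among them Mdm2 and Casp8), or 16.7% (5.84 to 39.2), near the 17.9% of the junction genes. Of 48 ribosomal protein genes 4 had one (Rpl3, Rpl27, Rpl38 and Rps9), or 8.33%. So did 3 of 30 mitochondrial ribosomal (10.0%), 3 of 30 proteasome (10.0%), 2 of 19 aminoacyl-tRNA synthetase (10.5%) and 2 of 24 splicing genes (8.33%). The intervals of these lists, and of those for other cell types below, span the background of 6.90%. At the proteasome genes the Slug scores were 66.8 at Psmc2, 92.3 at Psmb2 and 97.7 at Psmd2, on both sides of the median of all shared sites, 79.4. Of the lists for other cell types, neurons had 1 of 16 (Map2, 51.2), hepatocytes 1 of 16 (Apoa2), immune cells 0 of 16 and endothelium 0 of 12. Over all 514 listed genes 51 had a shared site, or 9.92%.

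Histone genes held many of the sites with high Snail scores. Of 106 protein-coding histone genes, a class chosen after the values were seen, 55 had a shared site (51.9%, 42.5 to 61.2). Their 48 sites had Slug scores from 52.9 to 441 with a median of 101, and their 34 Snail peaks had a median score of 1798. Snail scores pile up at 3100, where several sites are tied, so the order among the highest is arbitrary. Of sites nearest protein-coding genes, those at this level lay at Rbm33 and at histone genes, among them H2ac19, with Slug scores of 113 and 118, H4c11, H2bc23, H4c17, H4c18, H4bc24, H1f4, with 2 sites, and H1f2. Their Snail scores were 3100 to 3157. In all, 26 sites lay in a Snail peak scoring at least 3100, of which 11 lay at a histone gene and 14 nearest an snRNA gene. Of Snail peaks nearest a histone gene 62.7% (49.0 to 74.7) held a shared site, against 12.1% of all Snail peaks at gene ends. CAGGTG was present in 5 of the 36 histone promoter windows touched, so these sites did not share the motif content of the others. Histone genes are small, lie side by side and are copies of each other, and how reads matching several copies were counted is not given in the sources used here, so their peaks are uncertain.

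Genes annotated as small nuclear RNAs, a class that holds RNAs of the splicing machinery and the U3 RNA of ribosomal RNA processing, also held many of the sites with high Snail scores. Of 1004 annotated snRNA genes 38 had a shared site (3.78%), below the 6.90% of protein-coding genes. Of Snail peaks nearest an snRNA gene 47.8% (36.3 to 59.5) held one. The 39 sites at such genes had Slug scores of 50.4 to 366 with a median of 123, and their 37 Snail peaks had a median score of 2364. They made up 2.25% of the shared sites by nearest gene, against 0.327% of Snail-only and 1.16% of Slug-only peaks. These genes also exist in many near-identical copies, with the same uncertainty. Of the 20 highest-scoring Snail peaks with a shared site 7 lay at histone and 12 at snRNA genes. Without both classes the share of touched windows with CAGGTG was 38.4%. No touched window belonged to an snRNA gene, so only histone windows were removed.

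**Figure D5:**
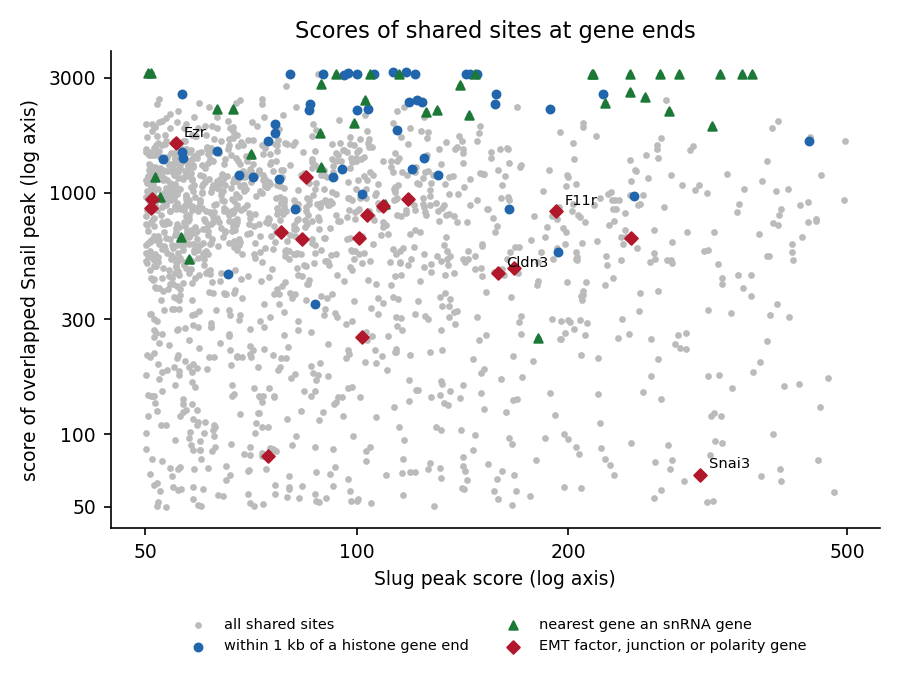
Slug score against the score of the overlapped Snail peak for the 1642 shared sites, both on log axes and each on its own scale. Sites at histone and snRNA genes crowd the top edge, where Snail scores pile up near 3100, while sites of epithelial-mesenchymal factors, junction and polarity genes lie among the rest.

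Away from histone and snRNA genes, the highest Snail scores at protein-coding genes, picked after their values were seen, were at Rbm33 (Snail 3100, Slug 88.0), Efcab2 (Snail 2779, Slug 79.3) and Calm2, a calmodulin gene (Snail 2446, Slug 73.3). The Integrator subunit gene Ints13 combined a Snail score of 2426 with a Slug score of 276. The highest Slug scores at protein-coding genes were at Cep295, a centriole protein gene (Slug 496, Snail 1638), Gm32584 (Slug 494, Snail 933), Hdhd5 (Slug 459, Snail 1189), Anxa3, an annexin gene (Slug 457, Snail 130), and Fhl1, a LIM domain gene (Slug 454, Snail 77.9). The Cep295 and Hdhd5 sites were centred 164 and 216 bp upstream of a start, and that of Fhl1 747 bp from an end of the gene. These 5 sites had Snail scores from 77.9 to 1638.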

How the data were processed

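Slug was mapped in pBl.1G and Snail in pBl.3G, with 1 ChIP library each and 1 peak list per library. Bowtie, MACS 1.4.2 and mm10 are listed in the submitters' processing notes, and their settings and the control sample were not given there. A deposited peak has a position and the authors' peak caller score, a number whose scale no header states, and it was used within 1 list at a time. Starts were converted to 1-based positions. Gene ends and promoter windows came from RefSeq tables of GRCm38.p6 (49943 genes), with the strand read from the promoter table; windows on chromosome 18 were not used here. Of the 25 lists, 514 genes were matched, 17 of them by synonym. The members and lists were chosen with earlier results of these data known. Genes were named when a list gene had a site, when it had at least 3 sites, when it was among the 5 highest Slug or 10 highest Snail scores nearest protein-coding genes, or when it lay at the score limit; list genes are partly given as counts, and some are not reported here. Promoter sequences were printed for list genes with CAGGTG under a site. Calculations used Python 3.11.15, numpy 2.4.6, pandas 2.3.3 and scipy 1.17.1, with plots in matplotlib 3.10.9. The functions for overlap, gene-end distance and counting were tested on simulated peaks with known answers. The motif search and the interval bounds were not tested in this way. Alternatives changed the distance, overlap, score limits and gene table.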

Additional observations from a re-analysis of the deposited data

How the results depend on the processing

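A 500 bp or 2 kb distance, no upper Slug limit or protein-coding genes only kept the count of sites (main value 1642) within 1.5 times. A 50% reciprocal overlap, which a narrow Slug peak inside a wide Snail peak cannot meet, left 118 sites, 72 genes and 0 of 514 listed genes. The kept sites had a median width of 364 bp in Snail peaks of 490 bp scoring 93.2, with 76.1% nearest a start, 7.63% at paired ends and 35.2% of promoters with CAGGTG. Scores of at least 100 in both lists left 529 sites, 498 genes and 16 listed genes, with a site width of 322 bp, Snail width of 1222 bp, 92.7% nearest a start and 33.2% of promoters with CAGGTG, against 27.1% for all sites nearest a start. The share nearest a start was 85.9% at 2 kb and 92.6% with protein-coding genes only. Paired ends made up 23.3% at 500 bp, 33.8% at 2 kb and 17.4% with protein-coding genes only. The median Snail score, 729 counted per site, was 832 at 500 bp, 624 at 2 kb and 791 with protein-coding genes only. Apart from what these settings change by construction, the cause was not tested. Of 100 recomputed list counts 47 moved by more than 1.5 times. The CAGGTG share of touched windows, 37.2%, was 35.0% to 38.4% under alternatives chosen after seeing the data. These were a high or low CpG ratio, the outermost start of each gene, and no histone and snRNA genes, the latter without any touched window. No paired analysis was possible because each factor has 1 library. Depth is unknown, so a gene without a shared site may have one below the score of the lists.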
